A study of Mus musculus with 6 samples.

Results

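Laminin chains, nidogens and perlecan, the core proteins of basement membranes, were examined in neural stem/progenitor cells (NSC/NPCs) from the fetal hypothalamus of mice with prenatal high estradiol exposure (HE) and of control mice (NC). The 10 genes Lama1, Lama2, Lama4, Lama5, Lamb1, Lamb2, Lamc1, Nid1, Nid2 and Hspg2 were taken by symbol from the 22048 genes of the deposited RNA sequencing table, and all 10 were among the 13952 genes with enough reads to be tested. Members were chosen by family with the measured HE and NC levels of these samples in view (the RPKM values and the comparison of HE with NC), so their values and p-values are a description and no independent evidence. In both groups the dams were C57BL/6 mice aged 8 weeks that were dosed orally, by gavage, on E5.5 through E11.5. HE dams received estradiol valerate, an estradiol ester, at 100 μg/kg/d, and NC dams received the corn oil solvent, although the sample labels call the NC samples untreated. At E14.5 the hypothalami of male fetuses were dissociated, and the cells were grown as floating neurospheres in Neurobasal-A medium with B27, EGF and bFGF and harvested at passage 1. There were 3 NC samples (NC1 to NC3) and 3 HE samples (HE1 to HE3), and each pooled the cells of 2 mice, so differences were judged against the spread between 3 such pools per group. The sources used here do not say how many dams these mice came from, so pools of a group may share a dam.

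Laminins are secreted as trimers of 1 alpha, 1 beta and 1 gamma chain that polymerize into a sheet on the cell surface. Nidogens bind the laminin gamma chain and type IV collagen and thereby link both networks, and perlecan, encoded by Hspg2, is a large heparan sulfate proteoglycan that binds both and stores growth factors. In the developing brain the basement membrane under the pia anchors the endfeet of radial glia, and laminin-rich deposits lie beside progenitors of the ventricular zone.

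Expression was measured as RPKM, a read count divided by gene length and by the total of the sample, so levels can be compared between genes. The total per sample was 16078675 to 19137059 reads on genes, and 1 read on a gene of 1 kb corresponded to 0.0523 to 0.0622 RPKM. The labelled cell type was checked on 12 neural stem and progenitor markers, which were all tested, and the most abundant were Vim (1767 ± 36.8 RPKM in NC and 1489 ± 265 in HE, SD, n = 3), Fabp7, Nes and Sox2. The sample HE3 stood apart, with 5776 genes at 0 reads against 4319 to 5235 in the others and a weight of 0.158 against 0.852 to 2.87 where limma estimated a weight per sample. It also had the lowest total, 16078675 reads on genes. Values of members that moved by more than 1.5 times without HE3 are therefore given both ways.

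Within NC, Lamb2 had the highest level of the 10 mRNAs, at 96.8 ± 10.7 RPKM (SD, n = 3), above 95.1% of the tested genes. It was followed by Lamc1 at 47.4 ± 3.20, Lama5 at 35.3 ± 5.17, Nid1 at 19.3 ± 2.32 and Lamb1 at 8.85 ± 1.19 RPKM, and none of these overlapped its neighbour in that order. Hspg2, Nid2 and Lama4 came next, at 6.53 ± 0.392, 6.13 ± 1.195 and 5.39 ± 1.19 RPKM, and neighbouring members among these overlapped in their sample values. Lama1 (2.47 ± 0.754 RPKM) and Lama2 (0.847 ± 0.413 RPKM) were lowest. In HE the order differed: Lamb2 (59.8 ± 17.3 RPKM) overlapped Lamc1 (44.1 ± 3.95), Nid1 (27.6 ± 1.56) ranked above Lama5 (18.8 ± 8.17), and Lama5 overlapped Lamb1 (18.6 ± 2.48). Every member was covered by at least 173 reads in each sample.

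**Figure D1:**
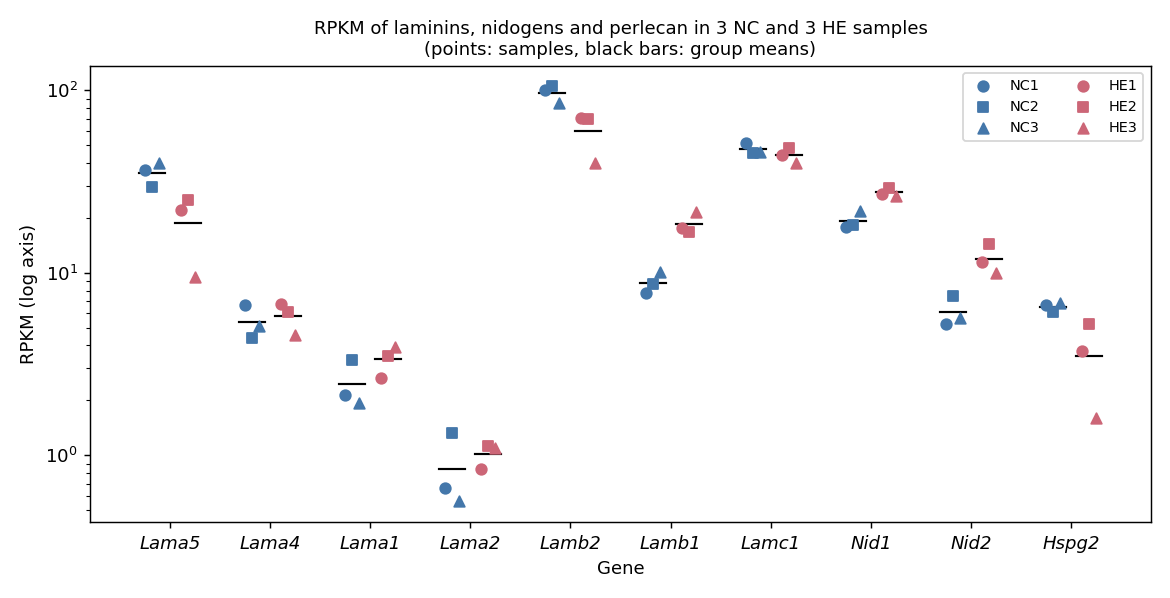
RPKM of the 10 mRNAs on a log axis, with 1 point per sample (blue, NC, and red, HE) and a black bar at each group mean. The 3 HE points lie above the 3 NC points for Lamb1, Nid1 and Nid2 and below them for Lama5, Lamb2 and Hspg2, with HE3 the lowest of all 6 samples for the last 3.

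To ask how prenatal estradiol exposure went with these mRNAs, HE was compared with NC by limma on log2(RPKM + 0.1), a scale that understates differences of weakly expressed genes, with p-values adjusted over all 13952 genes by the Benjamini-Hochberg method. Lamb1, Nid2 and Nid1 were higher and Hspg2, Lama5 and Lamb2 lower in every HE sample than in every NC sample, while Lama1, Lama2, Lama4 and Lamc1 overlapped between the groups. No member passed an adjusted p-value of 0.05 (0 of 10), and neither did any other gene (0 of 13952, 0%), with 0.148 as the smallest adjusted p-value over all genes. At an unadjusted p-value under 0.05, 3 members were higher and 3 lower in HE, against 1211 genes higher (8.68%) and 1647 genes lower (11.8%) over all tested. The HE values lay wholly above the NC values for 3 members, against 14.8% of all genes, and wholly below them for 3 members, against 17.9% of all genes. The median log2 fold change of the members was 0.21, and that of all genes was -0.06. In bulk RNA fewer cells of a type and less RNA per cell cannot be told apart.

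**Figure D2:**
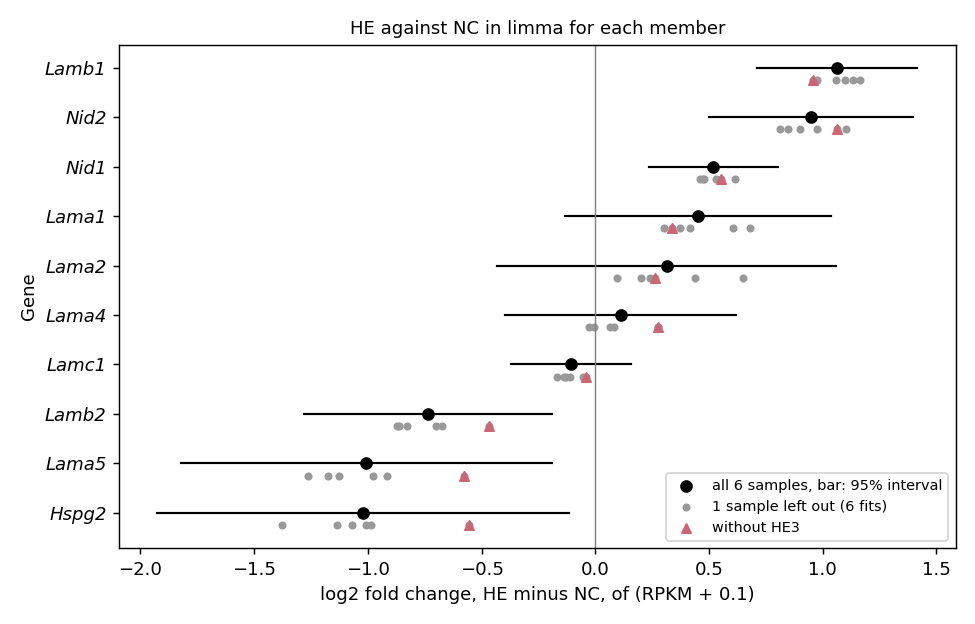
Log2 fold change (HE minus NC) of each mRNA in limma, with black points and 95% interval bars from all 6 samples, grey points from fits without 1 sample, and red triangles from the fit without HE3. The interval lies above 0 for Lamb1 (0.71 to 1.42), Nid2 and Nid1 and below 0 for Lamb2, Lama5 and Hspg2, and these last 3 lie closer to 0 without HE3.

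Among the alpha chains, which carry the sites for cell surface receptors, only Lama5 separated the groups, and it was lower in HE. Lama5 is the main alpha chain of many epithelial and embryonic basement membranes. It was at 36.4, 29.6 and 39.7 RPKM in NC1 to NC3 and at 22.03, 24.9 and 9.54 RPKM in HE1 to HE3. All HE values lay below the lowest NC value, and HE3 was far below the other HE samples. The difference corresponded to a 1.87-fold higher mean in NC and a log2 fold change of -1.01 (standard error, SE, 0.35, adjusted p = 0.205 in limma). Without HE3 the log2 fold change was -0.58 (adjusted p = 0.149 in limma). The gene spans chr2:180176373-180225904 of GRCm38.p6, and the 250 bases before the transcript start that the RefSeq promoter table uses (chr2:180225860-180226109, minus strand) are shown because Lama5 was the alpha chain that differed most, with GC boxes (GGGCGG on either strand, the letters bound by Sp factors) in capitals. That start lies inside the gene span, so 45 of these bases fall within the gene.
Lama5: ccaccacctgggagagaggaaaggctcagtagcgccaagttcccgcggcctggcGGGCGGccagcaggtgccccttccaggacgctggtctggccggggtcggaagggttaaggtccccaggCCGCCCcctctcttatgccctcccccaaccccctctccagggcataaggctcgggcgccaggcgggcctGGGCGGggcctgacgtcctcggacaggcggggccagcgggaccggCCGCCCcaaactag

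Lama4, an alpha chain typical of vascular basement membranes, was at 6.70, 4.37 and 5.09 RPKM in NC and at 6.78, 6.12 and 4.55 RPKM in HE. The groups overlapped, the log2 fold change was 0.11 (SE 0.22, adjusted p = 0.769 in limma), and its sign turned without NC2 (-0.025) and without HE1 (-0.0076). Without HE3 the log2 fold change of Lama4 was 0.28 (adjusted p = 0.441 in limma). Lama1, the alpha chain of the earliest embryonic basement membranes and of the pial surface, was at 2.14, 3.33 and 1.93 RPKM in NC and at 2.67, 3.50 and 3.91 RPKM in HE. HE2 and HE3 lay above all NC samples but HE1 lay below NC2, and the log2 fold change was 0.45 (SE 0.25, adjusted p = 0.314 in limma), which was 0.68 without NC2. Lama2, the alpha chain of muscle and of the glial side of brain vessels, was at 0.662, 1.32 and 0.559 RPKM in NC and at 0.838, 1.13 and 1.09 RPKM in HE. NC2 was the highest of all 6 samples, so the groups overlapped, with a log2 fold change of 0.31 (SE 0.32, adjusted p = 0.559 in limma), which was 0.65 without NC2, 0.20 without NC1 and 0.094 without NC3. The 95% interval of the Lama2 difference, -0.43 to 1.06, was the widest among the alpha chains that overlapped, and counts of 173 to 413 reads lay behind it.

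The beta chains differed in opposite directions. Lamb1, the beta chain of most embryonic laminins, was at 7.73, 8.72 and 10.1 RPKM in NC1 to NC3 and at 17.6, 16.8 and 21.4 RPKM in HE1 to HE3. The lowest HE sample was well above the highest NC sample, and the HE samples lay close together. The mean was 2.10-fold higher in HE, with a log2 fold change of 1.06 (SE 0.15, adjusted p = 0.195 in limma), and it was 0.96 without HE3. Among the 10 members Lamb1 had the largest difference relative to its standard error. Lamb2, which replaces Lamb1 in many mature basement membranes such as those of the neuromuscular synapse and the kidney glomerulus, was at 101, 105 and 84.7 RPKM in NC and at 70.2, 69.3 and 39.9 RPKM in HE. Every HE value lay below the lowest NC value, and HE1 and HE2 were nearly equal while HE3 was lower still. The mean was 1.62-fold higher in NC, the log2 fold change was -0.74 (SE 0.23, adjusted p = 0.195 in limma), and without HE3 it was -0.47 (adjusted p = 0.151 in limma). Lamb1 lies at chr12:31265146-31329644 and Lamb2 at chr9:108479847-108490530 of GRCm38.p6. The 250 bases before the transcript starts of the RefSeq promoter table, both on the plus strand (chr12:31265043-31265292 and chr9:108479612-108479861), are set side by side because these chains share a place in the trimer and differed in opposite directions, with GC boxes in capitals. These starts again lie inside the gene spans, so 147 of the bases shown for Lamb1 and 15 of those for Lamb2 fall within the gene.
Lamb1: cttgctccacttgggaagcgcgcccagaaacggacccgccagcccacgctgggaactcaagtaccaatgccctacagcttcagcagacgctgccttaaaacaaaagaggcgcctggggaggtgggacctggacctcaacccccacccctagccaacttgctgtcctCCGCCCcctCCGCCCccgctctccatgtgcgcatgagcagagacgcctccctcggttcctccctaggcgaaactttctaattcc
Lamb2: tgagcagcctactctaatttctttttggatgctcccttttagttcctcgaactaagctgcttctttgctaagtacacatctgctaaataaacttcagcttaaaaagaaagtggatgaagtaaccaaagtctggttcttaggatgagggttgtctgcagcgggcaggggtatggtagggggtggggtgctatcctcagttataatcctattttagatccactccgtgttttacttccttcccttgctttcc

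Because RPKM is per length, the makeup of each chain class could be followed within a sample, which does not depend on the total of the sample. Lamb1 made up 7.10%, 7.65% and 10.6% of the summed RPKM of beta chains in NC1 to NC3 and 20.02%, 19.4% and 34.9% in HE1 to HE3. The Lamb1 share was thus 8.46% ± 1.90 in NC and 24.8% ± 8.73 in HE (SD, n = 3), and the groups did not overlap. The ratio of Lamb2 to Lamb1 RPKM was 13.1, 12.04 and 8.39 in NC and 3.98, 4.13 and 1.86 in HE, so Lamb2 remained the more abundant beta chain in all 6 samples. Lama5 made up 77.8%, 75.3% and 82.0% of alpha chain RPKM in NC and 66.7%, 69.1% and 49.0% in HE, while the share of Lama4 was 11.97% ± 2.05 in NC and 20.3% ± 3.20 in HE. The Lama4 level itself overlapped between the groups, and its larger share went with the lower Lama5 level. The Lama1 share, 5.67% ± 2.43 in NC and 12.6% ± 6.50 in HE, was 20.1% in HE3, and HE1 (8.08%) lay below NC2 (8.46%). Without HE3 the difference of the group means was 3.22 percentage points for Lama1 (6.95 with it) and -10.5 for Lama5 (-16.8 with it). The summed RPKM of alpha chains was 44.9 ± 4.88 in NC and 29.5 ± 8.84 in HE, that of beta chains 106 ± 9.80 and 78.6 ± 14.9, and that of gamma chains 48.2 ± 3.27 and 45.1 ± 4.17.

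**Figure D3:**
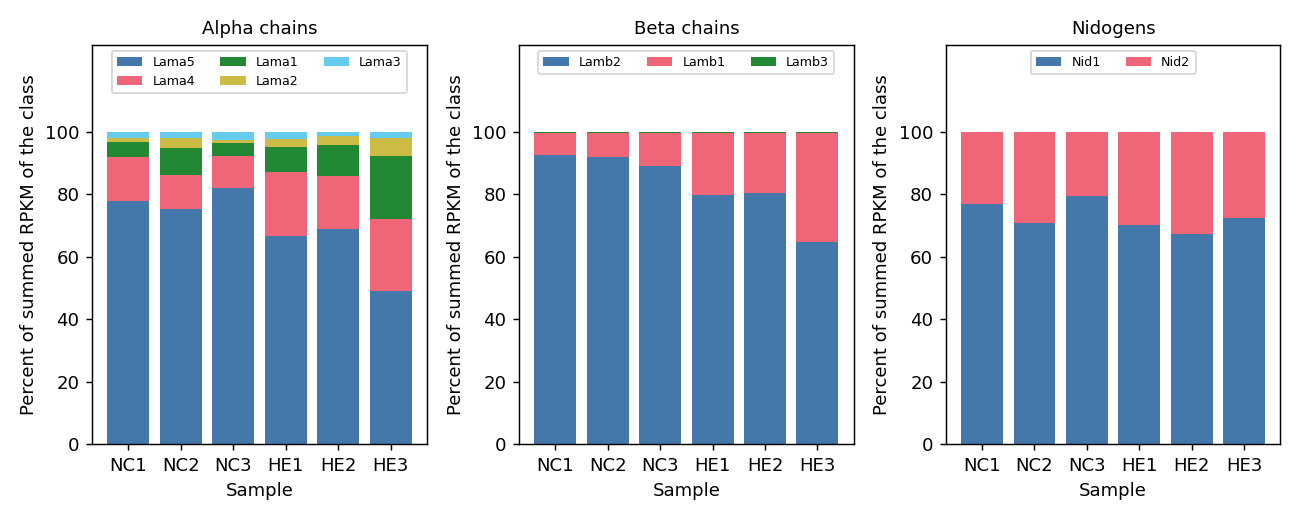
Share of each chain in the summed RPKM of its class, in percent, with 1 bar per sample for alpha chains (left), beta chains (middle) and nidogens (right). The Lamb1 part of the beta bar is 7.10% to 10.6% in NC and 19.4% to 34.9% in HE, the Lama5 part of the alpha bar is smaller in each HE sample, and the nidogen bars overlap between the groups.

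Lamc1, the gamma chain shared by most laminins, had the narrowest interval of the difference between groups. It was at 51.1, 45.3 and 45.9 RPKM in NC and at 44.2, 48.0 and 40.1 RPKM in HE. HE2 lay above NC2 and NC3, so the groups overlapped. The log2 fold change was -0.11 (SE 0.11, adjusted p = 0.576 in limma), and its 95% interval ran from -0.37 to 0.16. With 1 sample left out it lay between -0.17 (without HE2) and -0.041 (without HE3), with -0.052 without NC1. Lamc1 made up 98.3% ± 0.0573 of gamma chain RPKM in NC and 97.9% ± 0.618 in HE, so the gamma chain mRNA was nearly all from this gene. In NC the summed alpha chains, at 46.8, 39.3 and 48.5 RPKM, were lower than Lamc1 in NC1 and NC2 and higher in NC3. In HE1 to HE3 they were at 33.1, 36.1 and 19.5 RPKM, lower than Lamc1 in each sample.

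Both nidogens were higher in HE. Nid1, the main nidogen of most basement membranes, was at 17.7, 18.2 and 21.9 RPKM in NC1 to NC3 and at 27.0, 29.3 and 26.3 RPKM in HE1 to HE3. The groups did not overlap, and HE3 did not stand apart from HE1 and HE2. The mean was 1.43-fold higher in HE, with a log2 fold change of 0.52 (SE 0.12, adjusted p = 0.195 in limma). Nid2, a related nidogen that can stand in for Nid1, was at 5.26, 7.49 and 5.63 RPKM in NC and at 11.4, 14.3 and 10.0 RPKM in HE. Each HE sample lay above the highest NC sample, NC2. The mean was 1.94-fold higher in HE, with a log2 fold change of 0.95 (SE 0.19, adjusted p = 0.195 in limma), and it was 1.06 without HE3. The summed nidogen RPKM was 23.0, 25.7 and 27.6 in NC and 38.4, 43.6 and 36.4 in HE, which lay opposite in direction to the summed alpha and beta chains. The Nid2 share of that sum, 24.2% ± 4.51 in NC and 30.0% ± 2.61 in HE, overlapped between the groups. Nid1 lies at chr13:13437602-13512275 and Nid2 at chr14:19751257-19811787 of GRCm38.p6.

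Hspg2, which encodes the core protein of perlecan, was lower in HE. It was at 6.64, 6.10 and 6.86 RPKM in NC, the smallest relative spread of any member in NC, and at 3.72, 5.23 and 1.61 RPKM in HE. Every HE value lay below the lowest NC value, and HE3 was lower than HE1 and HE2, so the HE values had the largest relative spread of any member (coefficient of variation 51.7%, against 6.00% in NC). The log2 fold change was -1.02 (SE 0.38, adjusted p = 0.220 in limma), and without HE3 it was -0.55 (adjusted p = 0.172 in limma). The gene spans chr4:137468751-137570630 of GRCm38.p6. The 250 bases before the transcript start of the RefSeq promoter table (chr4:137468553-137468802, plus strand), of which 52 fall within the gene span, are shown because perlecan, like Lama5, was lower in HE and had several GC boxes, again in capitals.
Hspg2: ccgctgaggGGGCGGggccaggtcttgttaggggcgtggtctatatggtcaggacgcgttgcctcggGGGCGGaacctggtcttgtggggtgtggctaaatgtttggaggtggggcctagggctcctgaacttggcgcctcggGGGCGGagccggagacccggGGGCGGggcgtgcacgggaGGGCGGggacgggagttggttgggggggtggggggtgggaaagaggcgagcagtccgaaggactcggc

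Promoter windows in RefSeq (GRCm38.p6), from 250 bases before to 50 bases after 1 transcript start per entry, were matched for 6 of the 10 members, namely Lama2, Lama5, Lamb1, Lamb2, Nid1 and Hspg2. GC boxes, searched as GGGCGG on both strands, numbered 5 in Hspg2, 4 in Lama5, 2 in Lamb1, 1 each in Lama2 and Nid1 and 0 in Lamb2. The Lama2 window lies almost wholly inside the Lama2 gene span, including nearly all of its bases before the start. Its 1 GC box lies after that start. Of all 32851 RefSeq promoter windows of this length, whether or not the gene was tested here, 35.7% held at least 1 GC box and 5.49% held 4 or more. The median GC content was 52.7% over all windows and 61.0% over those of the tested genes. In the members it was 72.7% in Lama5, 70.3% in Hspg2, 64.7% in Nid1, 63.7% in Lamb1, 50.3% in Lama2 and 44.0% in Lamb2. The lower members thus held both the richest windows in GC and the poorest. The half-site AGGTCA of estrogen receptors and other nuclear receptors, on both strands, was in 0 of the 6 windows and in 16.3% of all windows. The full estrogen response element, GGTCA and TGACC with 3 bases of any kind between them, whose arms overlap with that half-site, was in 0 of the 6 windows and in 0.07001% of all windows.

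HE3 was the lowest of all 6 samples for 4 members (Lama5, Lamb2, Lamc1 and Hspg2) and the highest for 2 (Lama1 and Lamb1). On the scale of differences from the NC mean (log2), Hspg2 was at -0.80, -0.31 and -1.96 in HE1, HE2 and HE3, Lama5 at -0.66, -0.49 and -1.86, and Lamb2 at -0.46, -0.48 and -1.27. Lamb1, at 1.00, 0.92 and 1.28, and Nid1, at 0.49, 0.61 and 0.46, were closer together. Without HE3, 3 members were higher and 3 lower at an unadjusted p-value under 0.05, with 0 past the adjusted threshold in limma. Of the 13952 genes tested, 1305 were then higher and 1470 lower at that unadjusted p-value. In HE3 long genes were also lower as a whole: over the tested genes, cut by gene length into 5 groups of equal size, the median difference from the NC mean in HE3 ran from 0.02 in the group of shortest genes to -0.31 in that of the longest, while it stayed between -0.05 and 0.09 in HE1 and HE2. All 10 members lie in the 2 groups of longest genes, with Lamb2, Nid1 and Nid2 in the shorter of these and the other 7 in the longer. The part of gene length in these results was not tested.

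The laminin chains outside the list were scarce. Lama3 and Lamb3, chains of the laminin of epithelial hemidesmosomes, lay between 0.159 and 1.17 RPKM. Lama3, the higher of them, was at 0.922 ± 0.236 RPKM in NC, near Lama2, and at 0.512 ± 0.187 in HE, with overlapping groups and a log2 fold change of -0.76 (adjusted p = 0.221 in limma). Lamc3, a gamma chain found in brain and other tissues, was at 0.149, 0.120 and 0.390 RPKM in NC and at 0.724, 0.671 and 0.429 RPKM in HE. Its HE values lay above its NC values on counts of 14 to 79 reads, with a log2 fold change of 1.22 (SE 0.36, adjusted p = 0.195 in limma). Agrn, which encodes the heparan sulfate proteoglycan agrin, was at 53.6, 54.8 and 41.8 RPKM in NC and at 36.02, 43.2 and 25.01 in HE. Agrin was lower on average, as perlecan was, but HE2 lay above NC3 (log2 fold change -0.55, adjusted p = 0.226 in limma, and -0.33 without HE3). In this list of 5, 1 was higher and 2 were lower at an unadjusted p-value under 0.05, against 8.68% and 11.8% of all genes. The median of the list was -0.55 (-0.29 without HE3).

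Receptors for laminins were next set beside their ligands. Of 17 laminin receptor genes tested, 7 were higher and 10 lower in HE, and the median log2 fold change was -0.12. At an unadjusted p-value under 0.05, 1 was higher and 4 lower, against 8.68% and 11.8% of all genes. Among the 17 genes, 2 lay wholly above and 6 wholly below the NC values, against 14.8% and 17.9% of all genes. Sdc4 and Sdc1, syndecans that bind laminins through heparan sulfate, were at 360 ± 102 and 65.0 ± 6.32 RPKM in NC and at 201 ± 17.0 and 47.3 ± 4.81 in HE (SD, n = 3), with no overlap. Itgb4, the integrin beta subunit of hemidesmosomes, ranged from 3.15 to 8.13 RPKM in NC and from 0.319 to 1.86 in HE (log2 fold change -2.15, SE 0.61, adjusted p = 0.195 in limma). Dag1, which encodes dystroglycan, the receptor for laminin alpha chain ends, agrin and perlecan, was at 35.9, 38.2 and 31.8 RPKM in NC and at 25.6, 28.9 and 26.6 RPKM in HE. Its log2 fold change was -0.38 (SE 0.11, adjusted p = 0.195 in limma), with no overlap. Itgb1, the beta subunit of most laminin-binding integrins, named after its values were seen, was 88.5 ± 11.0 RPKM in NC and 117 ± 7.63 in HE. It was the 1 receptor gene higher at an unadjusted p-value under 0.05, so it lay on the side of Lamb1 and the nidogens, while Dag1 lay on that of Lama5 and Hspg2.

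Of 23 tested genes of the dystroglycan complex and its glycosylation, 7 were higher and 16 lower, with 0 past the adjusted threshold in limma and a median of -0.14. Large2, Pomgnt2 and Rxylt1, enzymes that build the laminin-binding sugar of dystroglycan, were named because their groups did not overlap. Their log2 fold changes were -0.53, -0.26 and 0.33 (adjusted p = 0.259, 0.283 and 0.262 in limma). Among the 23 genes, 3 lay wholly above and 5 wholly below the NC values, against 14.8% and 17.9% of all genes. Of 20 tested genes of basement membrane collagens and their partners, 9 were higher and 11 lower, with a median of -0.09, whose sign turned without HE3 (0.085). At an unadjusted p-value under 0.05, 2 were higher and 2 lower, against 8.68% and 11.8% of all genes. Serpinh1, the collagen chaperone of the endoplasmic reticulum, was at 329 ± 47.4 RPKM in NC and 500 ± 101 in HE, and Crtap and P3h1, whose complex hydroxylates collagen prolines, had log2 fold changes of 0.44 and 0.17, all without overlap. Col4a6, a type IV collagen chain, was lower, at 82.2 ± 28.7 RPKM in NC and 41.8 ± 12.4 in HE (log2 fold change -0.96, adjusted p = 0.196 in limma). Col4a1 and Col4a2, the main type IV collagen chains bound by nidogens and named after their values were seen, were higher in HE1 and HE2 but overlapped, with Col4a1 at 25.2, 13.2 and 23.2 RPKM in NC and at 46.3, 43.7 and 20.7 RPKM in HE.

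**Figure D4:**
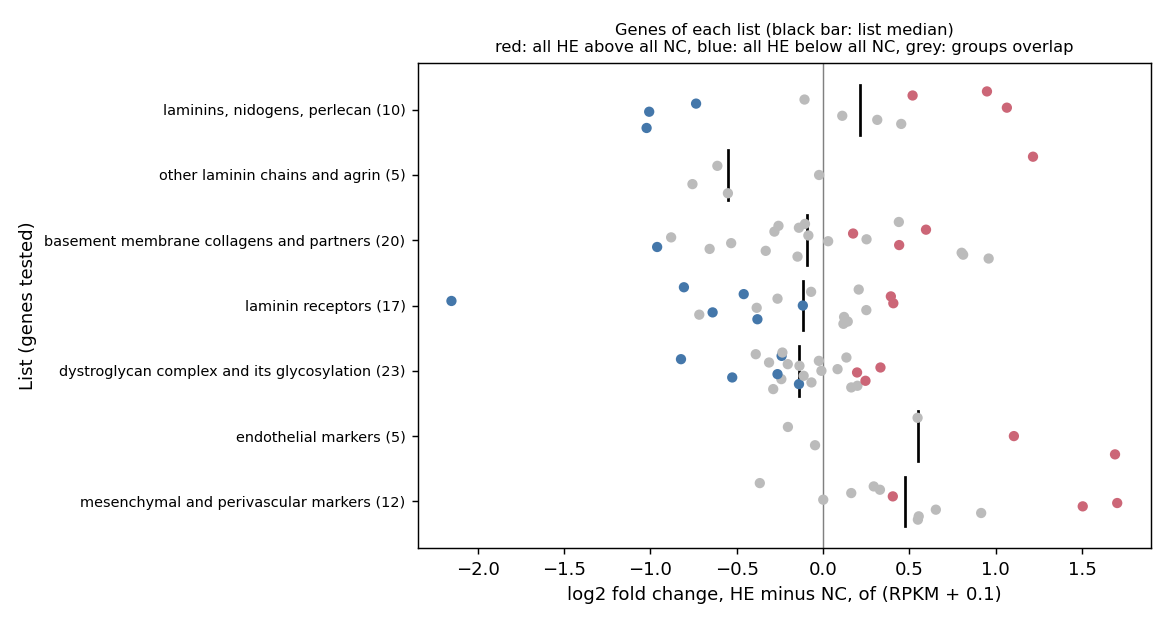
Log2 fold changes (HE minus NC) of the tested genes of each list, with 1 point per gene (red where every HE value was above every NC value, blue where below, grey where the groups overlapped) and a black bar at the list median. The laminin, nidogen and perlecan row holds 3 red, 3 blue and 4 grey points, with a median of 0.21, while the medians of receptors, collagens and the dystroglycan complex lie between -0.14 and -0.09.

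Cells that make basement membranes in the brain include endothelial and mesenchymal cells, and some of their markers were higher in HE. Over all tested genes, 8.68% were higher and 11.8% lower at an unadjusted p-value under 0.05. Of 12 endothelial markers 5 were tested, and their summed RPKM over all 12 was 3.16 to 4.51 in NC and 4.89 to 6.57 in HE, with 3 higher and 2 lower, with Cdh5 and Esam (2) higher at an unadjusted p-value under 0.05, and a median of 0.55. Cdh5 was at 0.601 ± 0.227 RPKM in NC and 2.12 ± 0.563 in HE, while Pecam1 had 3 to 17 reads and Cldn5 1 to 6 reads in a sample. Of 14 mesenchymal and perivascular markers 12 were tested, 11 higher and 1 lower, with 3 higher (Dcn, Col3a1 and Foxd1) at an unadjusted p-value under 0.05 and a median of 0.48 (0.72 without HE3). Their summed RPKM was 68.7 to 162 in NC and 104 to 215 in HE, and the groups overlapped. Col3a1 was at 26.8 ± 15.6 RPKM in NC and 70.0 ± 23.5 in HE, Dcn at 3.62 ± 2.02 and 12.7 ± 8.48 and Foxd1 at 1.08 ± 0.0918 and 1.46 ± 0.0863. Some of these markers were higher in HE, as Lamb1, Nid1 and Nid2 were. The endothelial sum was 3.16, 4.51 and 3.74 RPKM in NC1 to NC3 and 6.57, 6.20 and 4.89 RPKM in HE1 to HE3. Its groups did not overlap, and it was lowest in NC1. The mesenchymal sum was 162 RPKM in NC1, where Lamb1, Nid1 and Nid2 were lowest of all samples. In HE3, where Lamb1 was highest, the mesenchymal sum was 104 RPKM. The part of these markers in those results was not tested.

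Other cell types were checked in the same way, beside 8.68% of all genes higher and 11.8% lower at an unadjusted p-value under 0.05. Of the 12 progenitor markers 3 were higher and 9 lower in HE, with 1 lower (Prom1) at an unadjusted p-value under 0.05, and the median was -0.33, on the side of Lama5, Lamb2 and Hspg2. Sox2 was at 209, 209 and 195 RPKM in NC and at 176, 172 and 97.3 RPKM in HE, with HE3 lowest, as for those members. The summed RPKM of the 12 markers did not share that pattern. It was 3116 to 3753 in NC and 2991 to 4722 in HE, with HE3 highest of all samples. The log2 fold changes of Prom1, Msi1 and Sox1, which also did not overlap, were -0.87, -0.73 and -0.39, and without HE3 they were -0.56, -0.32 and -0.19. The median of the progenitor list was -0.21 without HE3. Of 10 neuron markers 4 were higher and 6 lower, with 2 higher at an unadjusted p-value under 0.05 (Map2 and Elavl4), a median of -0.10 (-0.16 without HE3) and summed RPKM of 49.1 to 79.3 in NC and 55.7 to 75.5 in HE. Of 8 astrocyte markers 4 were higher and 4 lower, with 2 higher (S100b and Sparcl1), a median of -0.11 (-0.0086 without HE3) and summed RPKM of 1560 to 1950 in NC and 1200.2 to 1805 in HE. Of 7 tested oligodendrocyte lineage markers 2 were higher and 5 lower, none at an unadjusted p-value under 0.05 (0 of 7, limma), with a median of -0.20 (0.068 without HE3) and summed RPKM of 290 to 320 in NC and 313 to 514 in HE. Of 6 tested choroid plexus and ependymal markers 1 was higher and 5 lower, 1 of them (Foxj1) past an unadjusted p-value of 0.05, with a median of -0.17 (0.045 without HE3) and summed RPKM of 123 to 250 in NC and 39.0 to 462 in HE. Of 10 microglia markers 5 were tested, 4 higher and 1 lower, with Tmem119 and C1qb (2) higher at an unadjusted p-value under 0.05, with a median of 0.32 and summed RPKM of 1.12 to 1.5 in NC and 2.78 to 8.71 in HE. Their part in the values of laminins, nidogens and perlecan was not tested.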

How the data were processed

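RNA of 3 NC and 3 HE samples was sequenced with a strand-specific poly(A) library. The sample labels and the paper name different Illumina sequencers. The submitters' processing notes list CASAVA 1.7, TopHat2 and mm10. The authors removed low-quality reads, aligned the rest with TopHat2 and deposited, for 22048 genes, the read count without normalization and RPKM, computed from the count, gene length and sample total. The counting tool, annotation and use of strand in counting are not given in the sources used here, so overlapping and antisense genes could share reads. The deposited counts are written with digit-grouping commas, which were removed on reading, and were recorded under another unit in the check of units. The planned test was on RPKM, with voom on the counts as an alternative. The authors named DESeq2 on counts and report differentially expressed mRNAs with it. DESeq2 was not run here, so the absence of genes past the adjusted threshold holds for the tests used here. RPKM differed from its formula by at most 4.99e-07.

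Groups were compared with limma (3.58.1, R 4.3.3) on log2(RPKM + 0.1) with a mean-variance trend, group as the only term and Benjamini-Hochberg adjustment. A gene was tested when 3 or more samples reached the rate that 10 reads give in a median-sized library, and when its reads summed to 15 or more. The fit was tested on simulated data. P-values measure the spread between pools of 2 mice, and reads are not independent molecules, so depth limits cover counting error only. Symbols were found for 21781 genes. Coordinates and promoters come from RefSeq (GRCm38.p6). The members, the gene lists and the tests were chosen with earlier results of these data known. All 10 members are named. From each other list the text names at most 4 genes, those with the smallest p among genes whose groups did not overlap, and for marker lists also the most abundant. The lack of overlap of genes named by that rule follows from it and is no result about their list. Other genes are said to have been named after their values were seen, or are named where a count of 5 or fewer called for it. The alternatives were a pseudocount of 1, scaling by median of ratios, a filter of 1 read in total, a filter of 10 reads in each sample, voom on the read counts, sample weights, a replicate block and each sample left out. Shares of chains were also computed from read counts. The medians of the other lists and the Agrn value without HE3 were added after seeing the data. Chain shares were described with no test. Differential expression of lncRNAs was not analysed here, and single results for a few genes of the lists are not reported here.

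Replicate numbers are shared by NC and HE in the labels. The deviations of same-numbered samples from their group means correlated at 0.16, 0.087 and 0.060 over genes, not all above 0.1, so the numbers were not taken as pairs.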

Additional observations from a re-analysis of the deposited data

How the results depend on the processing

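No member and no gene reached the adjusted threshold (0.05, limma) with a pseudocount of 1, median-of-ratios scaling, either other filter or voom, or without any sample other than NC3. With sample weights, which give HE3 little weight, 4 members passed (Lamb1 and Nid2 at an adjusted p of 0.0199, Nid1 at 0.0326 and Lamb2 at 0.0496), among 876 genes, and 1883 genes were higher at an unadjusted p under 0.05. Over its 13 alternatives the adjusted p of Lamb1 ran from 0.0199 to 0.502, that of Nid2 from 0.0199 to 0.502, that of Nid1 from 0.0326 to 0.502 and that of Lamb2 from 0.0496 to 0.502. With one sample left out, 0 to 1 members passed (1, Lamb1 at 0.0449, without NC3) and 0 to 105 genes (105 without NC3). The members higher at an unadjusted p under 0.05 then numbered 3 to 5 (5 without NC2) and those lower 1 to 3 (1 without NC1 or without NC3), against 613 to 1305 genes higher (613 without NC1, 667 without NC2) and 729 to 1912 lower (729 without NC1, 971 without NC2). The median log2 fold change of the members ran from 0.089, without NC3, to 0.27. Of 130 member values under 13 alternatives, 123 kept direction and side of the threshold, 5 newly passed it and 2 reversed, both of Lama4 (-0.025 without NC2 and -0.0076 without HE1, in a range up to 0.28). The cause of these changes was not tested. The differences in chain shares kept their direction in read counts and without each sample, with Lama5 of alpha chains at -20.5 to -10.5 percentage points and Lamb2 of beta chains at -19.1 to -11.3.

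With a replicate block, 0 members and 0 genes passed, and the smallest adjusted p of a member was 0.0966 (Lamb1). Each sample correlated best with the sample of its own number in the other group, a hint from the data and not from the design. Counts of 173 or more reads lay behind every member value, and the tests rest on 3 samples per group.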

Other observations

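The genes that build and edit heparan sulfate, the sugar carried by perlecan, agrin and the syndecans, were all tested (22). In HE 12 were higher and 10 lower, with 0 higher and 6 lower at an unadjusted p-value under 0.05, against 8.68% and 11.8% of all genes, and 0 passed the adjusted threshold in limma. The median log2 fold change was 0.02, and -0.075 without HE3. Ndst1, which starts the sulfation of the chain, was at 50.5, 55.9 and 39.2 RPKM in NC and at 30.3, 27.6 and 29.7 RPKM in HE, with a log2 fold change of -0.72 (SE 0.15, adjusted p = 0.195 in limma). Sulf1, an extracellular enzyme that removes sulfate groups, was at 66.7, 79.4 and 35.4 RPKM in NC and at 32.5, 11.9 and 18.8 RPKM in HE, with a log2 fold change of -1.56. Hs3st3b1 and Hs6st1, which add sulfate groups at other positions, had log2 fold changes of -0.75 and -0.44. These genes were named because their groups did not overlap, and all were lower in HE, as Hspg2 and Agrn were on average. Among the 22 genes, 1 lay wholly above and 7 wholly below the NC values, against 14.8% and 17.9% of all genes.

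Of 27 matrix proteases and inhibitors, 16 were higher and 11 lower in HE, with 0 past the adjusted threshold in limma and a median of 0.05. At an unadjusted p-value under 0.05, 3 were higher and 7 lower, against 8.68% and 11.8% of all genes. Among the 27 genes, 3 lay wholly above and 9 wholly below the NC values, against 14.8% and 17.9% of all genes. Bmp1, a procollagen proteinase that also cleaves laminin chains and perlecan, was at 115, 124 and 114 RPKM in NC and at 81.8, 75.9 and 73.0 RPKM in HE (log2 fold change -0.62, SE 0.10, adjusted p = 0.195 in limma). Adamts4, a proteoglycan-cleaving protease, and Ctsb, the lysosomal protease cathepsin B, had log2 fold changes of -0.73 and -1.12 with no overlap. Timp4, a metalloprotease inhibitor, was at 3.60, 8.40 and 6.10 RPKM in NC and at 11.8, 14.4 and 30.3 RPKM in HE, highest in HE3, with a log2 fold change of 1.58.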
